A study of Arabidopsis thaliana with 6 samples.

Results

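Salicylic acid is a plant hormone of defence against pathogens that feed on living tissue, and the 10 Arabidopsis thaliana genes described here make it, carry it or act in its signalling. They were chosen by AGI locus code: ICS1 (AT1G74710, listed as EDS16 in the reference table), EDS5 (AT4G39030), PBS3 (AT5G13320), EDS1 (AT3G48090), PAD4 (AT3G52430), SAG101 (AT5G14930), NPR1 (AT1G64280), SARD1 (AT1G73805), CBP60G (AT5G26920) and FMO1 (AT1G19250). All 10 were among the 28387 genes with a value. The study asked which leaf transcripts differ between atpip1;2-1, a T-DNA line of the aquaporin PIP1;2, and the wild type N-60000. Each group had 3 Affymetrix arrays, each array with RNA pooled from 5 plants, 15 plants per line. Both lines were grown in a greenhouse for 3 weeks in a 12 h photoperiod, at 24 °C by day and 20 °C by night. Light was 70 to 80 µmol m-2 s-1, humidity 60% and CO2 370 µmol mol-1 for both. No treatment or infection is named in the labels for either line. The mutant is a single insertion line, so the effect of the insertion and of anything else carried by that line cannot be told apart.

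In leaves, most salicylic acid made in response to pathogens comes from chorismate in the plastid. ICS1 turns chorismate into isochorismate, the transporter EDS5 moves it to the cytosol, and PBS3 joins it to glutamate, after which it breaks down to salicylic acid. EDS1 works in complexes with PAD4 or SAG101 downstream of immune receptors. The transcription factors SARD1 and CBP60G switch on ICS1 and other defence genes, NPR1 is a salicylic acid receptor that activates transcription with TGA factors, and FMO1 makes N-hydroxypipecolic acid, a mobile signal of systemic acquired resistance.

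Each gene had 1 log2 expression value per array, so a difference of 1 is a doubling. Differences are mutant minus wild type, tested with limma over all genes at an adjusted p of 0.05. Correlations between arrays over all genes lay between 0.975 and 0.989, and standard errors of the differences had a median of 0.19. PIP1;2 itself was at 8.73, 9.14 and 8.74 in wild type replicates 1 to 3 and at 5.16, 5.51 and 5.18 in those of the mutant, 12.0 times lower (adjusted p = 0.000148 by limma). The leaf genes RBCS1A and CA1 lay between 10.3 and 10.9 in every array, while LHCB1.1, a light-harvesting gene with near-identical copies, lay between 1.41 and 3.02. Root markers lay between 1.71 and 3.24. Levels of different genes cannot be compared on these arrays, so these ranges are no test of the tissue. None of 15 cell type and senescence markers passed the threshold with limma, 0 of them at an unadjusted p under 0.05. In whole leaves, fewer cells of a type and less RNA per cell cannot be told apart.

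None of the 10 genes passed the threshold over all genes with limma, where 0.342% of all genes passed. At an unadjusted p under 0.05 there were 2, SARD1 and CBP60G, both lower in the mutant, where 6.32% of all genes were lower and 5.92% higher at that level. The count was 1, SARD1 alone, without mutant replicate 1, mutant replicate 3 or wild type replicate 1. In those fits 3169, 2901 and 2766 of all 28387 genes were at that level in either direction. CBP60G had unadjusted limma p of 0.0756, 0.0757 and 0.0937 there. The count was 3 when either mutant replicate 2 or wild type replicate 3 was left out, beside 3169 and 3475 of all genes. At an adjusted p under 0.10 SARD1 passed, where 0.673% of all genes did. The mutant mean was the lower one in 8 of the 10, against 51.6% of all genes. The median log2 fold change was -0.26, against -0.01 over all genes. The 10 genes were chosen with earlier results of these data known, so these shares are no test of them. The 3 mutant arrays lay wholly below the 3 wild type arrays in 1 of the 10, SARD1, a share like the 9.24% over all genes. The 10 genes did not share one size of difference: ICS1, EDS5 and PBS3 had values from -0.07 to 0.05, and SARD1 was at -1.02.

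**Figure D1:**
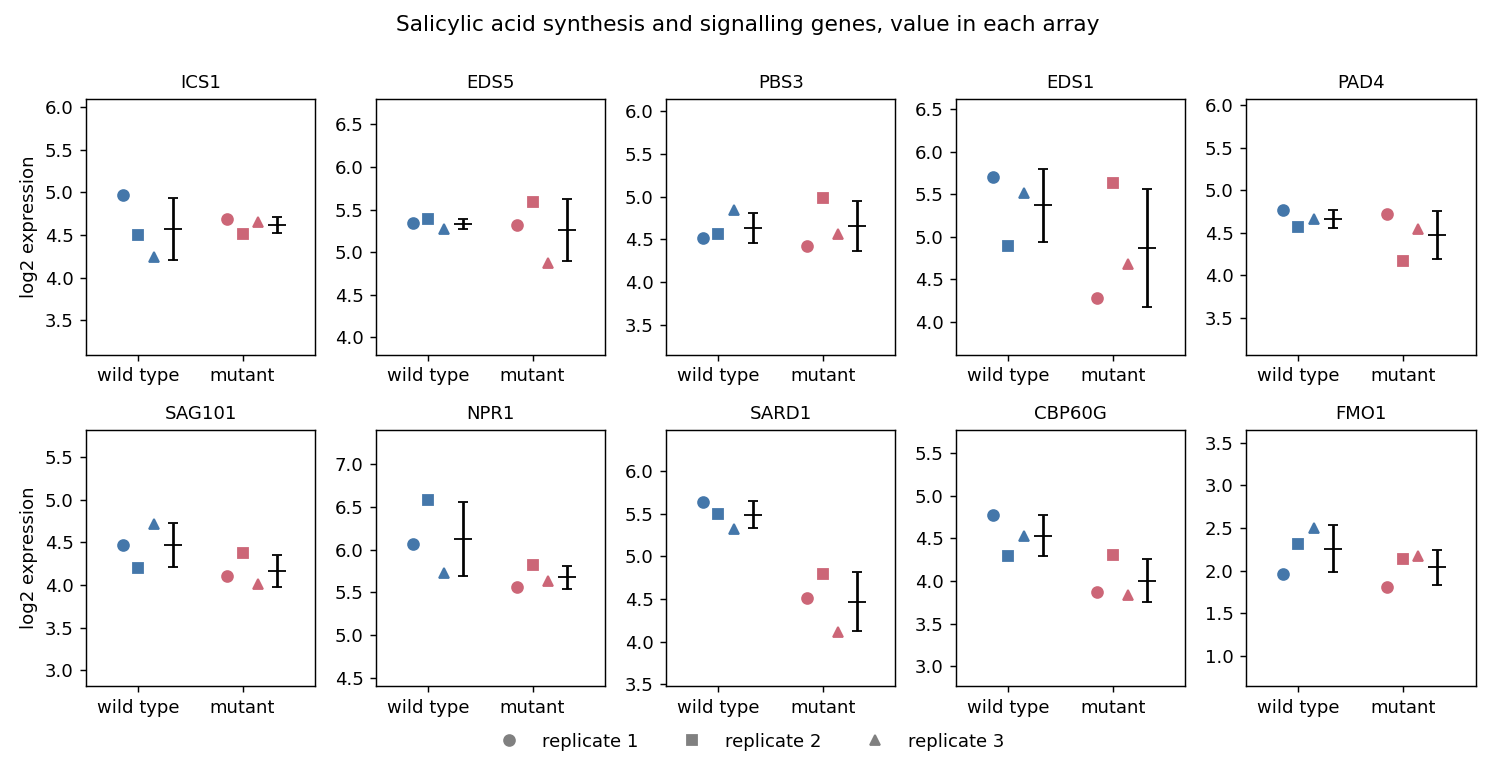
Log2 expression of the 10 genes in each array (vertical axis, each panel spanning the same range), with wild type in blue and mutant in red, 1 symbol per replicate number, and the mean ± SD of 3 arrays in black. SARD1 is the 1 gene whose groups do not overlap; the lowest wild type array of SARD1 lies 0.53 above its highest mutant array.

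The 2 enzymes and the transporter that lead to salicylic acid had the smallest differences of the 10 genes. ICS1, the isochorismate synthase at the entry of the route, had 4.97, 4.50 and 4.24 in the wild type arrays, and 4.69, 4.51 and 4.66 in the mutant arrays. The mutant values of ICS1 all lay inside the wild type range, and the log2 fold change was 0.05 (SE 0.20), with a 95% interval from -0.41 to 0.50 (adjusted p = 0.955). EDS5, the exporter of isochorismate from the plastid, had 5.34, 5.39 and 5.27 in the wild type arrays, and 5.32, 5.59 and 4.87 in the mutant arrays. The spread of EDS5 was wider in the mutant (SD 0.36) than in the wild type (SD 0.06), and its log2 fold change was -0.07 (95% interval -0.52 to 0.37, adjusted p = 0.922). PBS3, the amido synthetase of the next step, had 4.52, 4.56 and 4.84 in the wild type arrays, and 4.42, 4.98 and 4.56 in the mutant arrays. That gave PBS3 a log2 fold change of 0.02 (95% interval -0.42 to 0.45, adjusted p = 0.983). Differences of 2-fold lie outside the intervals of all 3 genes, while smaller ones in either direction remain inside them. The direction of each of the 3 turned when single arrays were left out: ICS1 was at -0.12 without wild type replicate 3, EDS5 at 0.12 without mutant replicate 3, and PBS3 at -0.15, -0.04 and -0.02 without mutant replicate 2 and wild type replicates 1 and 2.

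Outside the 10 genes and the pathway lists, the genes whose pattern over the 6 arrays was most like that of ICS1 were AT5G38830, AT5G56700 and MYB55. Their Pearson correlations with ICS1 were 0.992, 0.985 and 0.985, the highest 3 among 14147 genes in the upper part of the spread over arrays. With so many candidates and 6 arrays, such values are a description of these arrays. As with ICS1, wild type replicate 1 was the highest array and wild type replicate 3 the lowest for all 3 genes, and none passed the threshold (adjusted p from 0.879 to 0.974 by limma). Because the 3 genes were picked for their likeness to ICS1 over these arrays, neither trait is a separate result. The mean of AT5G56700 was in the dimmest 25% of genes, under 2.20.

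The EDS1 complex genes had lower means in the mutant, each with overlapping groups. EDS1, the lipase-like protein at the centre of the complexes, had 5.70, 4.89 and 5.52 in the wild type arrays, and 4.28, 5.63 and 4.69 in the mutant arrays. Mutant replicate 2 of EDS1 lay among the highest wild type arrays and the other mutant arrays lay below all of them, so the log2 fold change of -0.50 had a wide 95% interval, -1.26 to 0.25 (adjusted p = 0.596). Without mutant replicate 2 it was -0.89, and without mutant replicate 1 it was -0.21. In the Columbia accession EDS1 is known as a tandem pair of near-identical copies, so how probes were shared between them bears on its value. The adjoining locus AT3G48080, named here outside the naming rule, had 5.41, 5.41 and 5.20 in the wild type arrays, and 4.81, 4.86 and 5.09 in the mutant arrays. Its groups did not overlap, and its log2 fold change of -0.42 (SE 0.16) did not pass either (adjusted p = 0.344).

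PAD4 and SAG101 are the alternative partners of EDS1. PAD4 had 4.77, 4.56 and 4.66 in the wild type arrays, and 4.72, 4.17 and 4.54 in the mutant arrays, a log2 fold change of -0.19 (95% interval -0.60 to 0.22, adjusted p = 0.739). Mutant replicate 2, the highest mutant array for EDS1, was the lowest for PAD4, and without it the log2 fold change of PAD4 was -0.03. Without mutant replicate 1 the log2 fold change of PAD4 was -0.31. SAG101 had 4.47, 4.20 and 4.72 in the wild type arrays, and 4.11, 4.37 and 4.01 in the mutant arrays, a log2 fold change of -0.30 (95% interval -0.72 to 0.12, adjusted p = 0.565). Without wild type replicate 3 the log2 fold change of SAG101 was -0.17, and without wild type replicate 2 it was -0.43. SAG101 was the 1 gene of the 10 that the platform annotation names in the deposited table per probe set, where it had -0.11. PAD4 minus SAG101 within an array was 0.20 ± 0.23 for the wild type and 0.31 ± 0.45 for the mutant (SD, n = 3). It shifted by 0.11 (SE 0.29, exact two-sided permutation p = 0.6, 0.6 adjusted over the 2 pairs compared), and was -0.033 without mutant replicate 1 and -0.015 without wild type replicate 3, so its sign was not stable.

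SARD1 had the lowest log2 fold change of the 10. SARD1, a transcription factor of the CBP60 family, had 5.64, 5.50 and 5.33 in the wild type arrays, and 4.51, 4.79 and 4.11 in the mutant arrays. Every mutant array was below every wild type array, and the means were 5.49 ± 0.16 and 4.47 ± 0.34 (SD, n = 3). The log2 fold change was -1.02 (SE 0.20, 95% interval -1.47 to -0.56), 2.03 times lower. Its adjusted p of 0.0929 by limma missed the threshold, and its unadjusted p of 0.000589 ranked it 180 of 28387. The exact permutation p reached its minimum in this design, 0.1. SARD1 passed with a variance trend and robust fitting (adjusted p = 0.0303), a setting that called 375 genes in place of 97. Leaving out each array in turn gave SARD1 values from -1.18 to -0.84.

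CBP60G, the calmodulin-binding relative of SARD1 with overlapping functions, had 4.77, 4.30 and 4.53 in the wild type arrays, and 3.88, 4.30 and 3.84 in the mutant arrays. Mutant replicate 2 and wild type replicate 2 of CBP60G met at 4.30, and the other mutant arrays lay below every wild type array. The log2 fold change was -0.53 (SE 0.20, 95% interval -0.97 to -0.09, adjusted p = 0.327 by limma). The difference SARD1 minus CBP60G within an array was 0.87, 1.20 and 0.80 in the wild type arrays, and 0.63, 0.49 and 0.27 in the mutant arrays. Only its shift between the lines is read here, since levels of different genes cannot be compared on these arrays. The groups did not overlap, the shift was -0.49 (SE 0.16), and the exact permutation p was 0.1 (0.2 adjusted over the 2 pairs). That is the lowest value this test can give with these arrays, so it could not have passed at 0.05 whatever the shift. Leaving out each array in turn gave shifts from -0.58 to -0.37.

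**Figure D2:**
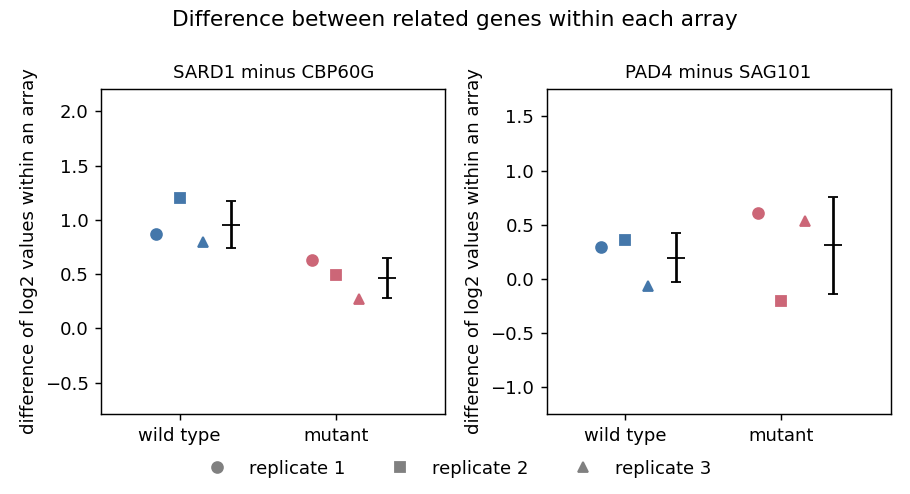
Difference of 2 log2 values within each array (vertical axis) for SARD1 minus CBP60G and for PAD4 minus SAG101, wild type in blue, mutant in red, mean ± SD of 3 arrays in black. The SARD1 minus CBP60G values lie between 0.80 and 1.20 in the wild type and between 0.27 and 0.63 in the mutant, and those of PAD4 minus SAG101 overlap.

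NPR1, the receptor and coactivator, had 6.07, 6.59 and 5.73 in the wild type arrays, and 5.57, 5.82 and 5.64 in the mutant arrays. Mutant replicate 2 lay above wild type replicate 3, and the log2 fold change was -0.45 (SE 0.22, 95% interval -0.95 to 0.05, adjusted p = 0.457). Without wild type replicate 2 the log2 fold change of NPR1 was -0.22, and without wild type replicate 3 it was -0.65. FMO1, the monooxygenase that makes N-hydroxypipecolic acid, had 1.96, 2.31 and 2.50 in the wild type arrays, and 1.81, 2.13 and 2.17 in the mutant arrays. Its mean was in the dimmest 25% of genes, under 2.20, the 1 gene of the 10 in that range, and no background values show it to be above background. Its log2 fold change was -0.22 (95% interval -0.65 to 0.21, adjusted p = 0.703). Without mutant replicate 1 or wild type replicate 3 it was -0.10, and without wild type replicate 1 it was -0.37. ALD1, an aminotransferase of the same route, had -0.28 (SE 0.21, adjusted p = 0.638).

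Mutant replicate 2 held the highest mutant value in 7 of the 10 genes, EDS5, PBS3, EDS1, SAG101, NPR1, SARD1 and CBP60G. Within the wild type, replicate 1 was the highest in 5 of the 10. The mutant mean was the lower one in 9 of the 10 without mutant replicate 2, and equally without wild type replicate 1, 2 or 3, in 8 without mutant replicate 1 and in 7 without mutant replicate 3. Without mutant replicate 2 groups did not overlap in 5 of the 10, where 28.6% of all genes did not overlap with that array left out. Without mutant replicate 1 or 3, groups did not overlap in 2 and 1 of the 10 genes, beside 28.8% and 28.5% of all genes. Without wild type replicate 1, 2 or 3 the counts were 3, 3 and 2, beside 27.7%, 26.7% and 31.2%. Whether one pool of plants sets these orders was not tested.

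A further 62 genes were listed by their role around the 10, of which 61 were measured, and 2 of the 61 passed the threshold, both lower in the mutant, where 0.155% of all genes were lower and passed. The mutant mean was the lower one in 37 of the 61 and the median log2 fold change was -0.15. The lists were chosen with earlier results of these data known, so shares over all genes set beside them are no test. Both genes that passed are among the salicylic acid-responsive ones.

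**Figure D3:**
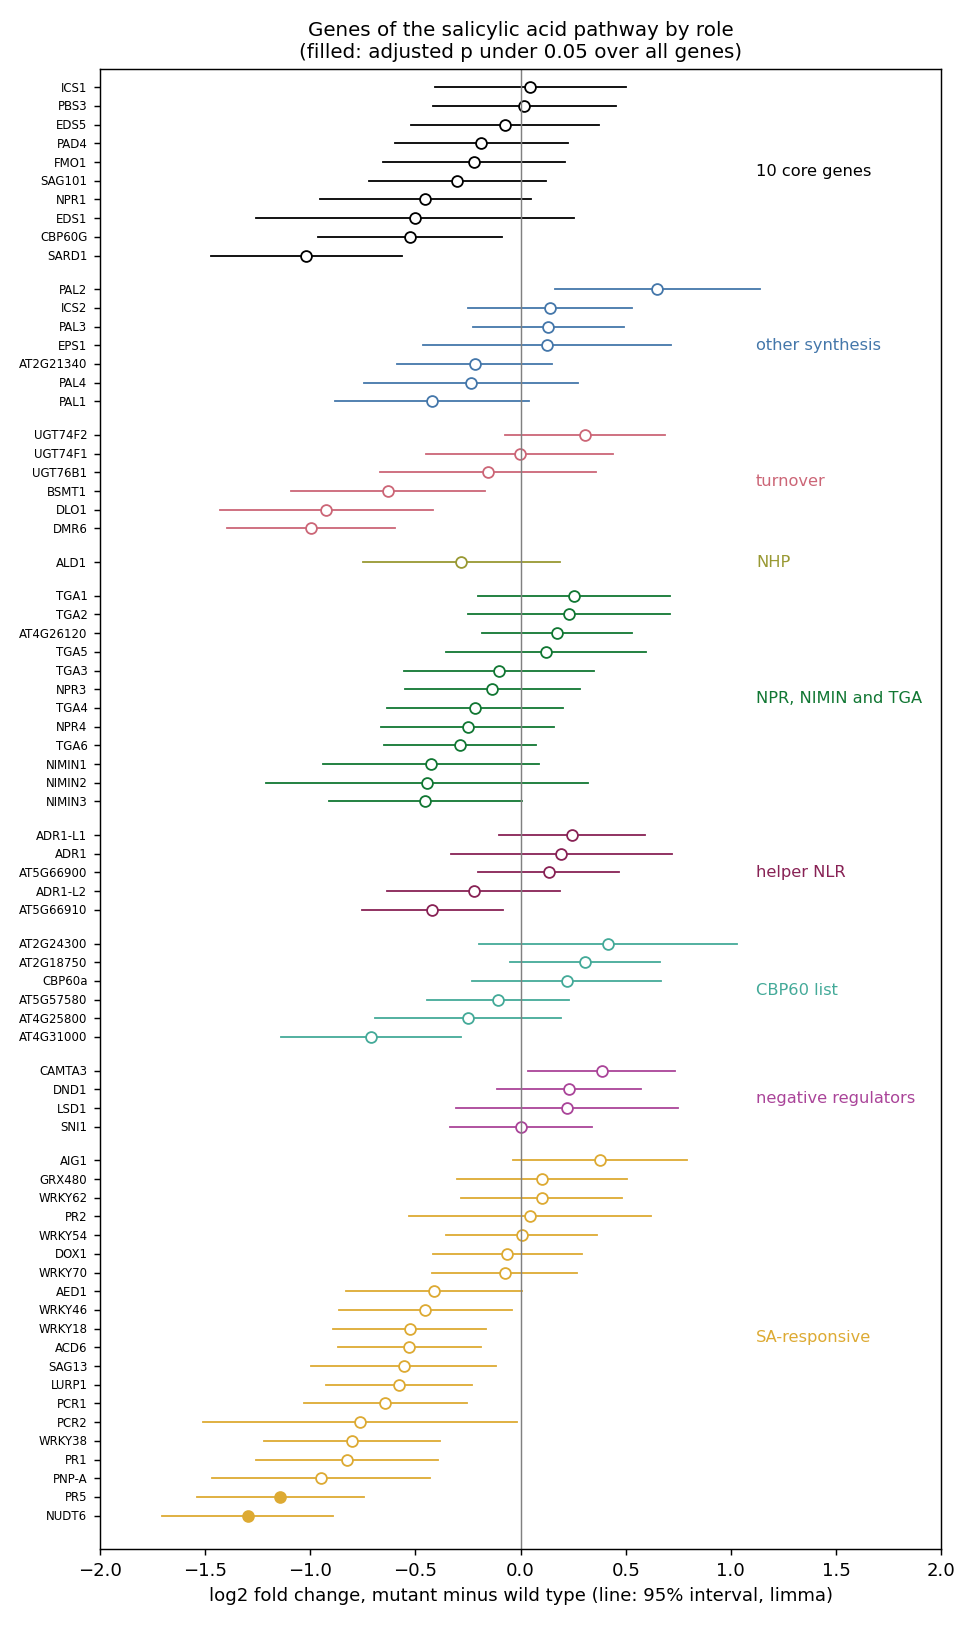
Log2 fold change, mutant minus wild type (horizontal axis), of the 10 genes and of 61 other pathway genes grouped by role, with points for the estimate and lines for the 95% interval from limma. NUDT6 and PR5, the filled points, are the 2 genes past the adjusted threshold, at -1.30 and -1.14.

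Of the 20 salicylic acid-responsive genes, 2 fell, 0 rose and 18 did not pass. The median log2 fold change was -0.53, and 12 of the 20 had an unadjusted p under 0.05, each of them lower in the mutant, with values from -1.30 to -0.45, beside 6.32% of all genes lower at that level. Among the 12, WRKY46, SAG13 and PCR2 had mutant means in the dim range. Groups did not overlap in 10 of the 20 with the mutant lower, beside 9.24% of all genes. They did not overlap in 1 with the mutant higher, AIG1 (0.38), beside 9.3%. The list was chosen with earlier results of these data known, so these shares are no test of it. NUDT6, a Nudix hydrolase gene, had 5.28, 5.24 and 4.87 in the wild type arrays, and 4.003, 3.840 and 3.658 in the mutant arrays. NUDT6 fell by 1.30 on the log2 scale (SE 0.18, adjusted p = 0.0219 by limma). PR5, a thaumatin-like pathogenesis-related protein gene, had 4.16, 4.59 and 4.61 in the wild type arrays, and 3.26, 3.39 and 3.28 in the mutant arrays. PR5 fell by 1.14 (SE 0.18, adjusted p = 0.0318), and its mutant arrays lay within a narrow span well below the wild type.

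Each call was lost in most fits with 1 array left out, where from 14 to 48 of all genes passed in place of 97. NUDT6 passed without wild type replicate 3 (adjusted p = 0.0373), and had adjusted p of 0.0722, 0.0778 and 0.117 without mutant replicates 1, 2 and 3 and 0.0998 and 0.114 without wild type replicates 1 and 2. PR5 passed without wild type replicate 1 (adjusted p = 0.0461), and had 0.129, 0.0944 and 0.149 without the mutant replicates and 0.141 and 0.0957 without wild type replicates 2 and 3. The log2 fold changes stayed between -1.43 and -1.21 for NUDT6 and between -1.29 and -1.06 for PR5. With the replicate number as a block, NUDT6 passed (0.0435) and PR5 did not (0.0695), and with quantile normalization applied again PR5 had 0.0517. Without moderation of the spread neither passed (0.182 and 0.194), and 0 of all genes did.

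Among the responsive genes that did not pass, PR1, the classical marker of the pathway, had 3.90, 3.47 and 4.04 in the wild type arrays, and 3.07, 2.77 and 3.09 in the mutant arrays (log2 fold change -0.83, adjusted p = 0.141). PR2, a beta-1,3-glucanase gene, was at 0.04 with overlapping groups, and its mean was in the dimmest 25% of genes. None of the 6 WRKY transcription factor genes of the list passed. WRKY38 had -0.80 and WRKY18 -0.53, both without overlap between the groups, and WRKY46 had -0.45 with a mutant mean in the dim range. WRKY70, WRKY54 and WRKY62 had -0.08, 0.00 and 0.10, with adjusted p of at least 0.866. PNP-A, a small secreted peptide gene, had -0.95 (adjusted p = 0.155), and ACD6, an ankyrin-repeat protein gene that raises salicylic acid signalling, had 10.4 in each wild type array and 10.01, 9.79 and 9.85 in the mutant (-0.53, adjusted p = 0.220). These responsive genes beyond the 2 called were named after their values were seen.

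**Figure D4:**
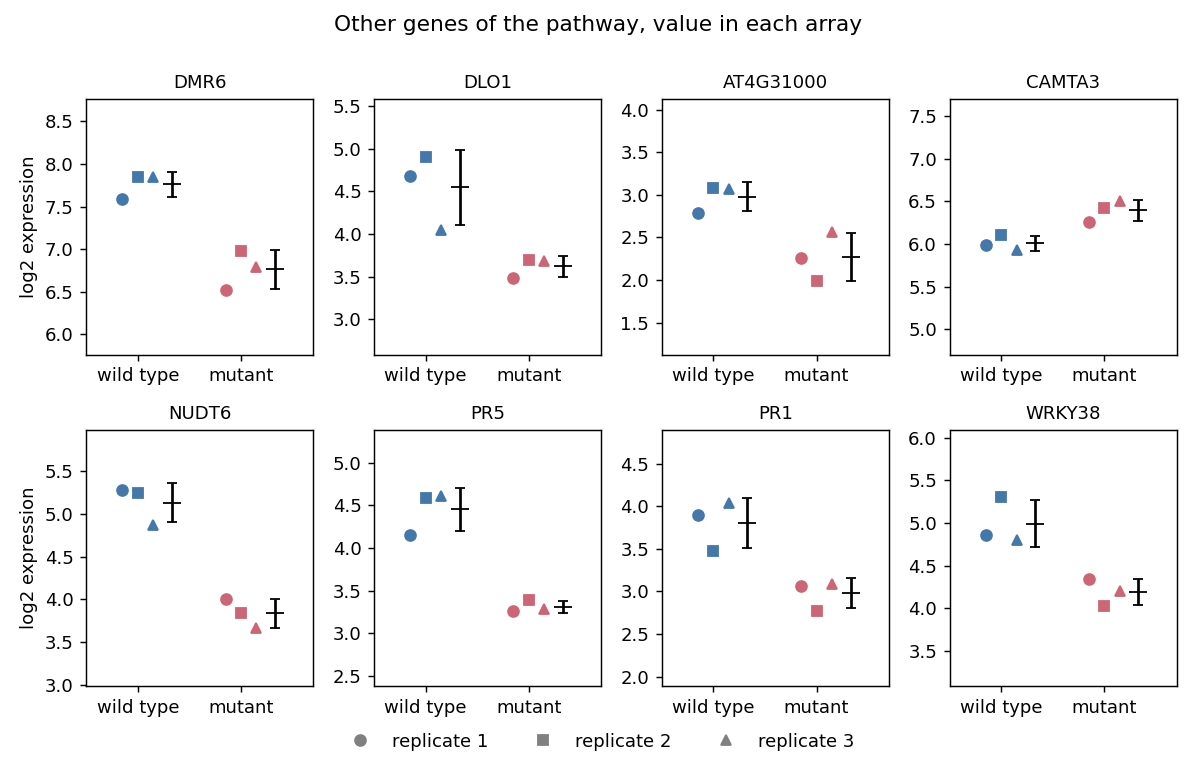
Log2 expression in each array (vertical axis, equal spans) of 8 other genes of the pathway, wild type in blue, mutant in red, mean ± SD of 3 arrays in black. In each panel the groups do not overlap, and the 8 genes were picked, some after their values were seen. Groups did not overlap in 25 of the 61 pathway genes, 18 lower and 7 higher in the mutant, beside 18.5% of all genes. The mutant is higher in CAMTA3 and lower in the other panels, and NUDT6 and PR5 are the 2 genes that passed the threshold.

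None of the 6 genes of salicylic acid turnover passed with limma, and 3 had an unadjusted p under 0.05, each lower in the mutant, again beside 6.32% of all genes. DMR6, a salicylic acid hydroxylase, had 7.59, 7.85 and 7.85 in the wild type arrays, and 6.52, 6.98 and 6.79 in the mutant arrays. Its groups lay 0.61 apart and its log2 fold change was -0.997 (SE 0.18, adjusted p = 0.0606). DLO1, the related hydroxylase, had 4.68, 4.91 and 4.05 in the wild type arrays, and 3.48, 3.70 and 3.69 in the mutant arrays (-0.92, SE 0.23, adjusted p = 0.155). BSMT1, the methyltransferase that makes methyl salicylate, had -0.63 (adjusted p = 0.270) with a mutant mean in the dim range. The glucosyltransferase genes UGT74F1 and UGT74F2, close copies whose single values are uncertain, had 0.00 and 0.31, and UGT76B1 had -0.15.

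The other genes of synthesis went both ways, and none of 7 passed. At an unadjusted p under 0.05 there was 1, PAL2, beside 5.92% of all genes higher at that level. PAL2 and PAL1, phenylalanine ammonia-lyases at the entry of the alternative route, had opposite signs. PAL2 had 5.88, 5.84 and 5.52 in the wild type arrays, and 5.97, 6.53 and 6.70 in the mutant arrays (0.65, SE 0.22, adjusted p = 0.281). PAL1 had 6.14, 6.07 and 6.63 in the wild type arrays, and 6.04, 5.58 and 5.95 in the mutant arrays (-0.42, SE 0.21, adjusted p = 0.452). ICS2, the second isochorismate synthase gene, had 0.14.

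None of the 12 genes of the list of NPR1 relatives, NIMIN proteins and TGA factors passed with limma (median -0.17). At an unadjusted p under 0.05 there were 0, beside 12.2% of all genes in either direction. The lowest values belonged to the NIMIN genes, whose proteins bind NPR1 and restrain it. NIMIN3 had -0.45 (adjusted p = 0.414), NIMIN2 -0.45 (adjusted p = 0.650) and NIMIN1 -0.43 (adjusted p = 0.500). NPR3 and NPR4, further salicylic acid receptors, had -0.13 and -0.25, and the 6 TGA genes lay between -0.29 (TGA6) and 0.25 (TGA1). TGA2 (0.23) and TGA5 (0.12) are close copies.

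Neither the helper immune receptors nor the list of CBP60 relatives held a gene past the threshold. Of the 5 helper receptor genes, which act with EDS1 complexes, ADR1-L1 had 0.24 (adjusted p = 0.570) and AT5G66910 -0.42 (adjusted p = 0.308). AT5G66910 was the 1 with an unadjusted p under 0.05, beside 6.32% of all genes lower at that level. Among 6 genes listed beside SARD1 and CBP60G, of which the reference table gives 1 a symbol, as the synonym CBP60a (0.22), the locus AT4G31000 had 2.78, 3.08 and 3.07 in the wild type arrays, and 2.25, 1.99 and 2.56 in the mutant arrays. Its log2 fold change was -0.71 (SE 0.19, adjusted p = 0.191), and AT2G18750 had 0.31 (adjusted p = 0.482). AT4G31000 was the 1 of these 6 with an unadjusted p under 0.05, beside 6.32% of all genes lower at that level. The mutant mean was lower in 3 of the 6 and higher in 3, with a median log2 fold change of 0.05.

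The 4 negative regulators had means at or above those of the wild type, and none passed. At an unadjusted p under 0.05 there was 1, CAMTA3, beside 5.92% of all genes higher at that level. CAMTA3, listed as SR1 in the reference table, is a calmodulin-binding repressor of EDS1, SARD1 and CBP60G. It had 5.99, 6.10 and 5.93 in the wild type arrays, and 6.26, 6.42 and 6.51 in the mutant arrays. Its groups did not overlap, as in 9.3% of all genes with the mutant higher. Its log2 fold change was 0.39 (SE 0.16, 95% interval 0.04 to 0.74, adjusted p = 0.364). DND1, a cyclic nucleotide-gated channel gene, had 0.23 (adjusted p = 0.588), LSD1 0.22 and SNI1 0.00.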

How the data were processed

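Leaf RNA of 3 mutant and 3 wild type pools was measured on Affymetrix arrays. The authors deposited log2 values per AGI code; RMA (background correction, normalization between arrays and probe summary) and Partek are named per the submitters' processing notes, with no version or role. The probe grouping, the genome build and the scan dates were not given in the sources used here. Batches were not tested. A second deposited table of log2 values per probe set (scale taken from its values) was an alternative. The labels call the arrays biological replicates.

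All 28387 genes were fitted with limma 3.58.1 in R 4.3.3 (lmFit, eBayes, two-sided, no covariate, Benjamini-Hochberg over all genes), without a filter on dim genes. Intervals are limma's 95% intervals. Pairs of genes were compared by exact permutation over the 20 splits of the arrays. The fit was tested on simulated data. Symbols are those, or synonyms, of the RefSeq table of TAIR10.1, in which 27681 genes were found (NIMIN2 and NIMIN3 without their hyphens). The members, lists and tests were chosen with earlier results of these data known. Named genes were the 10, PIP1;2, per list the genes past the threshold or else the 2 lowest p, and the 3 genes most like ICS1; others were named after their values were seen. After each gene's group mean was taken off, same-numbered arrays of the mutant and wild type had correlations of 0.01, 0.05 and 0.07 over all genes. Figures used matplotlib 3.10.9. The number of arrays limits the precision.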

Additional observations from a re-analysis of the deposited data

How the results depend on the processing

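Of 277 values recomputed under other settings, 249 kept their direction and their side of the threshold or stayed near their value. Of the rest, 7 turned direction, 20 counts moved by over 1.5 times or from 0, and 1 fold change of the 10 genes, that of SARD1, newly passed. Some could not turn: the variance trend, no moderation, the replicate block and leaving out dim genes do not alter a gene's fold change. Equal array medians do not alter a difference within an array. The tally is thus no measure of stability. The number of the 10 genes past the threshold was 1 with a variance trend and robust fitting, beside 375 of 28387 genes. It was 1 at a threshold of 0.10, beside 0.673% of all genes, and the gene was SARD1 both times. The number whose groups did not overlap was 2 after quantile normalization again, beside 19.1% of all genes, and ranged from 1 to 5 with single arrays left out, beside 26.7% to 31.2%. The responsive genes past the threshold numbered 4 with a variance trend, 1 after quantile normalization again and 1 with the replicate number as a block. They numbered 0 without moderation of the spread and from 0 to 1 with single arrays left out. All genes past it in these settings numbered 375, 88, 45, 0 and from 14 to 48, of 28387. In turnover, 1 gene, DMR6, passed with the dimmest 25% of genes left out (adjusted p = 0.0485), where 123 of 21295 genes passed. With a variance trend 1 passed, again DMR6 (0.0056). With single arrays left out, ICS1 ranged from -0.12 to 0.24, EDS5 from -0.24 to 0.12, PBS3 from -0.15 to 0.13 and the shift of PAD4 minus SAG101 from -0.033 to 0.37. The cause of these moves was not tested. The replicate block changed no other call; the arrays share only a number. The table per probe set names 1 of the 10 genes, SAG101, and 13 of the other pathway genes, so counts were not recomputed there.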
